A study of Homo sapiens with 15 samples.

Results

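The eukaryotic initiation factors (EIF genes) encode the proteins that load the ribosome onto an mRNA and set it at the start codon. The 50 protein-coding genes whose symbols run from EIF1 to EIF6 were taken from the 16109 genes listed in any of 3 deposited tables, leaving out the EIF2AK kinases, and were described by factor complex. Of these, 49 were listed in each table: EIF4EBP3 was not listed for PC3 and EIF4E3 was not listed for P493-6. Entries annotated as pseudogene or antisense were left out, and their number was 9 in the PC3 table and 9 and 10 in the P493-6 tables. RNA-seq was made from total RNA of 15 samples of 2 human cell lines after 24 h. PC3 is a prostate cancer line with a high level of its own MYC, and P493-6 is a B cell line, labelled as a Burkitt lymphoma line, whose introduced MYC is shut off by tetracycline. The groups, of 3 libraries each, were PC3 with DMSO, PC3 with 8 µM MYCi975, P493-6 with DMSO, P493-6 with 6 µM MYCi975 and P493-6 with 0.1 µg/ml tetracycline. MYCi975 is a small-molecule MYC inhibitor and was dissolved in DMSO. Tetracycline was dissolved in water while its controls received DMSO, so tetracycline and vehicle cannot be told apart. The dose of MYCi975 differed between the lines, so line and dose cannot be told apart either. The study asked how the inhibitor changes MYC target genes and set it beside switching MYC off.

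Initiation begins when eIF2, carrying GTP and the initiator tRNA, joins the small ribosomal subunit together with eIF1, eIF1A, eIF3 and eIF5. The mRNA is brought in by eIF4F, made of the cap-binding protein eIF4E, the scaffold eIF4G and the helicase eIF4A, and the 4E-binding proteins block this step by occupying eIF4E. After the start codon is found, eIF2 leaves with GDP and is recharged by its exchange factor eIF2B, and eIF5B joins the large subunit. Several of these genes are textbook MYC targets, and growing tumour cells depend on a high rate of initiation.

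Levels are in CPM, where 1 CPM is 1 read in every 1000000 that were counted for a library, and libraries held between 8162582 and 15926008 counted reads. A CPM is a share of a library, so it shows no change in total RNA, and in bulk RNA fewer cells of a type and less RNA per cell cannot be told apart. The labels do not say whether the replicates grew separately, so the spread behind each p-value may be technical only. MYC, the drug's target, stood at 4692 to 4791 CPM in the P493-6 controls and at 145 to 152 CPM with tetracycline, with no overlap. MYC mRNA was 5084 to 5138 CPM in P493-6 with MYCi975, and 300.4 to 309 CPM without and 359 to 386 CPM with the drug in PC3. All 7 B cell markers were listed in P493-6, and 7 of 8 markers of epithelial cells and prostate cancer in PC3, where KLK3 was not listed. The summed B cell markers rose with tetracycline, from 3898 to 4124 to 11501 to 11895 CPM, all 7 of them passing the test, and were 4408 to 4723 CPM with MYCi975. The part of that shift in the changes reported here was not tested. T cell markers CD3E and CD2 summed to 3.93 to 5.72 CPM in the P493-6 controls and 9.41 to 12.1 CPM with tetracycline, while CD3D was not listed. COL1A1, the 1 of 4 fibroblast markers listed, stood at 1.13 to 2.52 CPM in the P493-6 controls and 6.98 to 8.69 CPM with tetracycline, and rose by 1.55 (adjusted p = 7e-10). Epithelial markers summed to 11.1 to 12.4 CPM in the P493-6 controls and 1.82 to 2.75 CPM with tetracycline, against 1479 to 1502 CPM in the PC3 controls. The part of these shifts in the EIF changes was not tested either.

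Tetracycline lowered the EIF genes broadly, whereas MYCi975 moved them in both directions and by less. With tetracycline 40 of 49 EIF genes fell and 5 rose, against 41.9% of all 13703 genes that fell and 36.2% that rose. The median log2 change was −0.69 for the EIF genes and −0.050 for all genes. With MYCi975 in PC3, 16 rose and 19 fell, where 29.0% of all genes rose and 30.1% fell, with medians of −0.025 for EIF and −0.0020 for all genes. With MYCi975 in P493-6, 12 rose and 15 fell, where 10.6% of all genes rose and 18.0% fell, with medians of −0.057 and −0.042. TMM scaling of that comparison turned the split over all genes from 1375 up and 2338 down to 1819 up and 1690 down, and that of the EIF genes to 13 up and 13 down. The EIF genes together took 11602 ± 43.9 CPM of the PC3 control libraries and 10775 ± 147 CPM with the drug (SD, n = 3). In P493-6 they took 12932 ± 92.7 CPM in the controls, 12879.8 ± 142 CPM with MYCi975 and 7984 ± 66.5 CPM with tetracycline (SD, n = 3). Calls come from limma on log2(CPM + 1) over all genes of a table, at a Benjamini-Hochberg adjusted p below 0.05. All changes below are log2 differences on that scale, which understates the change of low genes. Where a call is said to be lost or gained, the data were refitted without 1 library, with TMM scaling of the limma input, or with edgeR or DESeq2 on whole reads recovered from the CPM. The edgeR and DESeq2 fits also rescaled the libraries, which the main fit did not. Calls lost with TMM scaling, edgeR and DESeq2 alike are therefore not separate checks. Calls lost with a replicate block are named in the closing section. Both P493-6 comparisons use the same 3 control libraries.

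**Figure D1:**
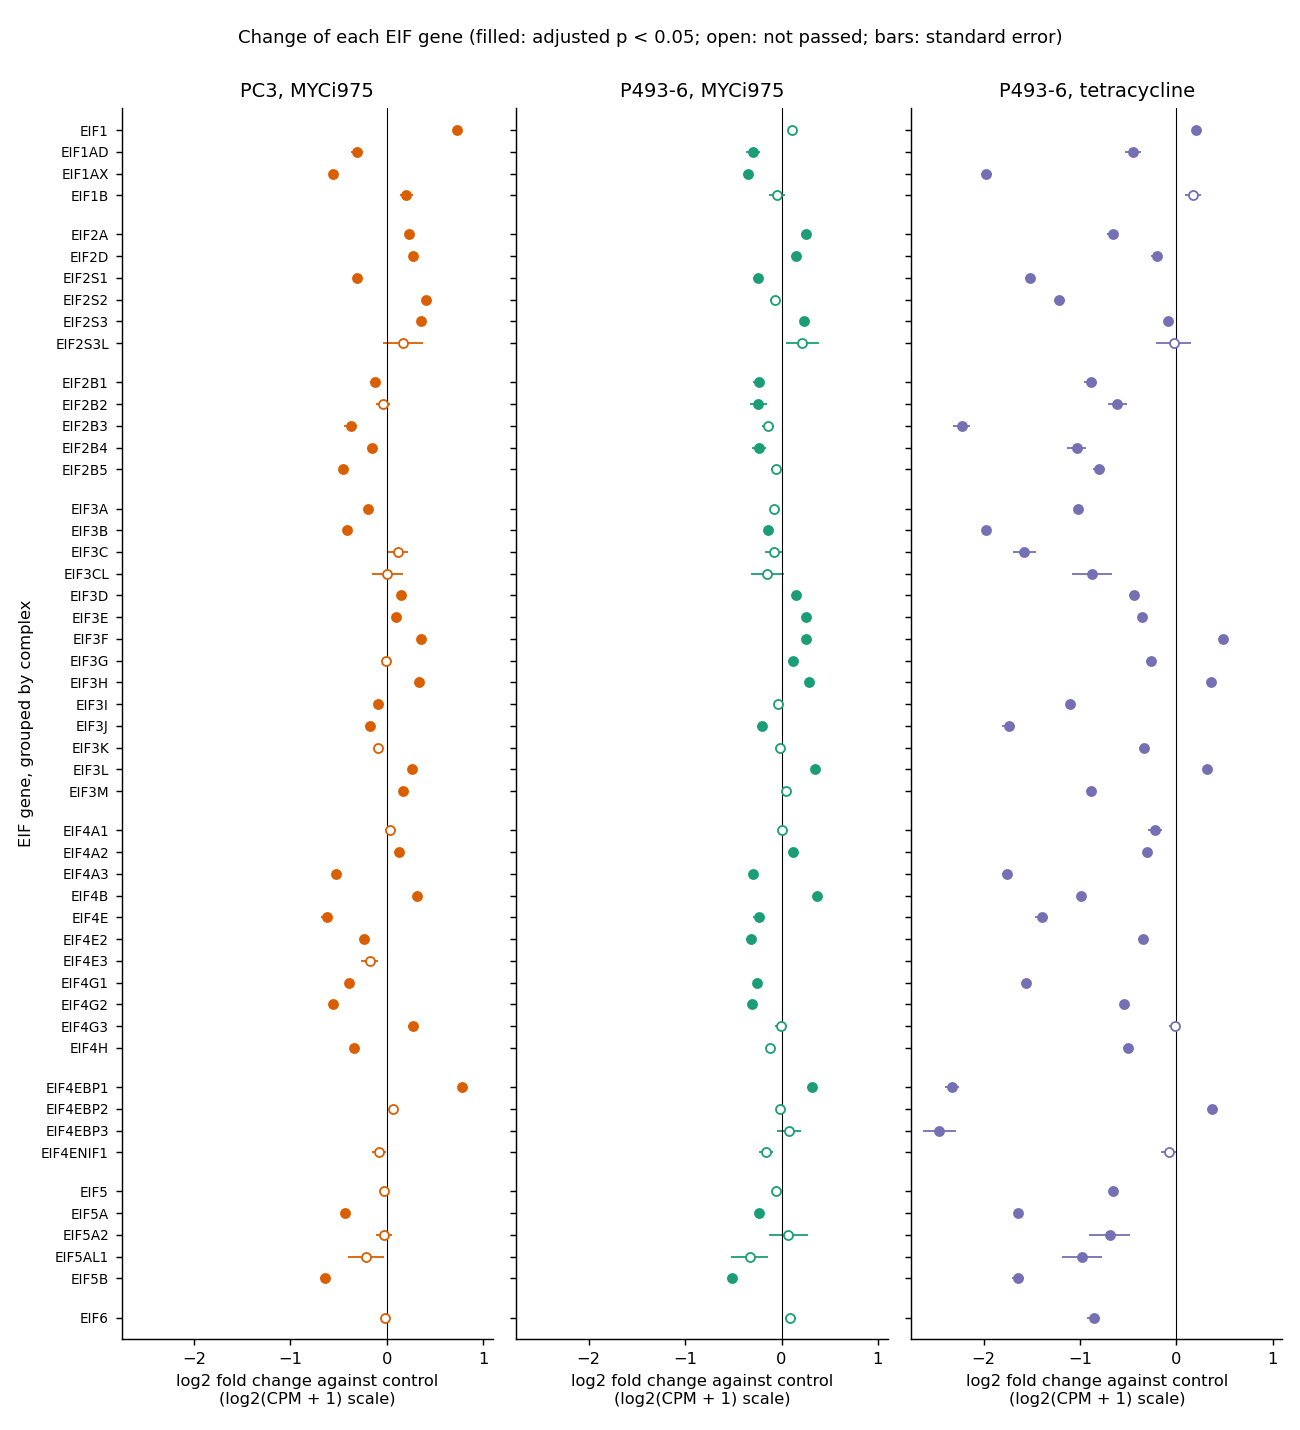
Log2 fold change of each EIF gene against its control on the log2(CPM + 1) scale (x axis), with genes grouped by complex (y axis) for MYCi975 in PC3, MYCi975 in P493-6 and tetracycline in P493-6. Filled points passed an adjusted p of 0.05, open points did not, and bars are standard errors; with tetracycline most points lie left of 0, down to −2.46, while with MYCi975 they lie between −0.64 and 0.79.

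The genes sorted into a few patterns over the 3 comparisons. In 14 genes the level fell in all 3: EIF1AD, EIF1AX, EIF2S1, EIF2B1, EIF2B4, EIF3B, EIF3J, EIF4A3, EIF4E, EIF4E2, EIF4G1, EIF4G2, EIF5A and EIF5B. Another 8 genes rose with MYCi975 in both lines and fell with tetracycline, namely EIF2A, EIF2D, EIF2S3, EIF3D, EIF3E, EIF4A2, EIF4B and EIF4EBP1. EIF3F, EIF3H and EIF3L rose in all 3. EIF2S3L and EIF4ENIF1 passed in none. How often all genes show these patterns was not worked out, so they cannot be called particular to EIF genes.

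The E-box CACGTG, to which MYC binds with its partner MAX, was looked for in the 250 bases before the annotated starts of the EIF genes (RefSeq, GRCh38.p14). The motif reads the same on both strands. It was found in 11 of 41 EIF genes with a window (26.83%) and in 11.24% of 9872 protein-coding genes of the tables with a window. Counted by window, it was in 11 of 56 windows of EIF genes (19.64%) and in 6.345% of all 35116 windows. The 11 genes were EIF1B, EIF2B3, EIF3F, EIF3K, EIF4A3, EIF4B, EIF4E, EIF4EBP3, EIF4G1, EIF4H and EIF5A2. With tetracycline 9 of these 11 fell and 1 rose, with a median log2 change of −0.99, and of 29 EIF genes tested whose windows lack the motif 25 fell and 2 rose, with a median of −0.66. Windows of 4 of them are shown 5′ to 3′ on the gene's strand, with the motif in capitals. EIF4E and EIF4G1 were taken as the genes of the cap complex that fell in all 3 comparisons, EIF2B3 as the EIF2B gene that fell most with tetracycline, and EIF3F as the gene with the motif that rose. The windows lie at chr4:98929134-98929383 (minus strand), chr3:184314356-184314605 (plus strand), chr1:44986596-44986845 (minus strand) and chr11:7987087-7987336 (plus strand). The last base of the motif lies 220 and 67 bases before the start of EIF4E, 139 and 62 before that of EIF4G1, 174 before that of EIF2B3 and 63 before that of EIF3F.
EIF4E: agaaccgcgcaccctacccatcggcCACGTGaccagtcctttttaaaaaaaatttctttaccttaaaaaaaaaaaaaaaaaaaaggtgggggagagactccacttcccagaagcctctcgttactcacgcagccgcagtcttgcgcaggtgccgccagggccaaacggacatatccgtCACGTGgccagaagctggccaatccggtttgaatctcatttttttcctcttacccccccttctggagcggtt
EIF4G1: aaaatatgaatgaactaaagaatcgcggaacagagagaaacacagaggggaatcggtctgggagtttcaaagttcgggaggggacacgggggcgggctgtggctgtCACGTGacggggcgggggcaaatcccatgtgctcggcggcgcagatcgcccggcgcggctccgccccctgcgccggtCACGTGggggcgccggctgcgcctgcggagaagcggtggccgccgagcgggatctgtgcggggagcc
EIF2B3: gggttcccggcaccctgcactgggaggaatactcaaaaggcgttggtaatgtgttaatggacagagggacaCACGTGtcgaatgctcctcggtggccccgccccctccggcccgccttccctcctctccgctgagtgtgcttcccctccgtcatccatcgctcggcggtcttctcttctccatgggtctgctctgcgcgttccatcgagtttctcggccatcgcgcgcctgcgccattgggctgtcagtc
EIF3F: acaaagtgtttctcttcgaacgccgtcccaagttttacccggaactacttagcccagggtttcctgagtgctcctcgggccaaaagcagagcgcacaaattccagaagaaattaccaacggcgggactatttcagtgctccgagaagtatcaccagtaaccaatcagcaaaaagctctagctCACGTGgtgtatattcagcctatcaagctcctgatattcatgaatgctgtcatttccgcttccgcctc
These are matches of letters in a window. No binding was measured here, and genes with the motif moved in either direction.

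Among the EIF4 genes, the cap-binding protein, the scaffold and the exon-junction helicase were lower in every treated group, while the helicase cofactor EIF4B went up with MYCi975 and down with tetracycline. In PC3 3 of 11 rose and 6 fell, in P493-6 with MYCi975 2 of 10 rose and 5 fell, and with tetracycline 9 of 10 fell and none rose (medians −0.23, −0.18 and −0.52). EIF4E (gene at chr4:98871684-98930637, hg38), the protein that holds the mRNA cap, stood at 61.3, 61.4 and 61.7 CPM in the PC3 controls and 36.8, 42.7 and 39.7 CPM with MYCi975. In P493-6 it stood at 91.3, 97.2 and 85.3 CPM in the P493-6 controls, 78.2, 71.8 and 81.8 CPM with MYCi975 and 34.9, 35.9 and 31.4 CPM with tetracycline. The groups did not overlap in either line, and the tetracycline libraries were the lowest of the line. EIF4E fell by 0.62 (SE 0.057, adjusted p = 3.73e-17) in PC3, by 0.24 (SE 0.057, adjusted p = 0.0011) with MYCi975 in P493-6 and by 1.40 (SE 0.068, adjusted p = 2.69e-21) with tetracycline. EIF4G1 (gene at chr3:184314495-184335358, hg38), the scaffold that joins eIF4E to eIF3, stood at 1502, 1581 and 1550.4 CPM in the PC3 controls and 1198, 1184 and 1145 CPM with MYCi975. The P493-6 libraries held 1152, 1115 and 1125 CPM in the P493-6 controls, 922, 965 and 958 CPM with MYCi975 and 373, 387 and 391 CPM with tetracycline. All treated libraries lay below all controls of their line. EIF4G1 fell by 0.39 (SE 0.025, adjusted p = 1.57e-26) in PC3, by 0.25 (SE 0.036, adjusted p = 4e-07) with MYCi975 in P493-6 and by 1.56 (SE 0.037, adjusted p = 7.73e-32) with tetracycline.

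**Figure D2:**
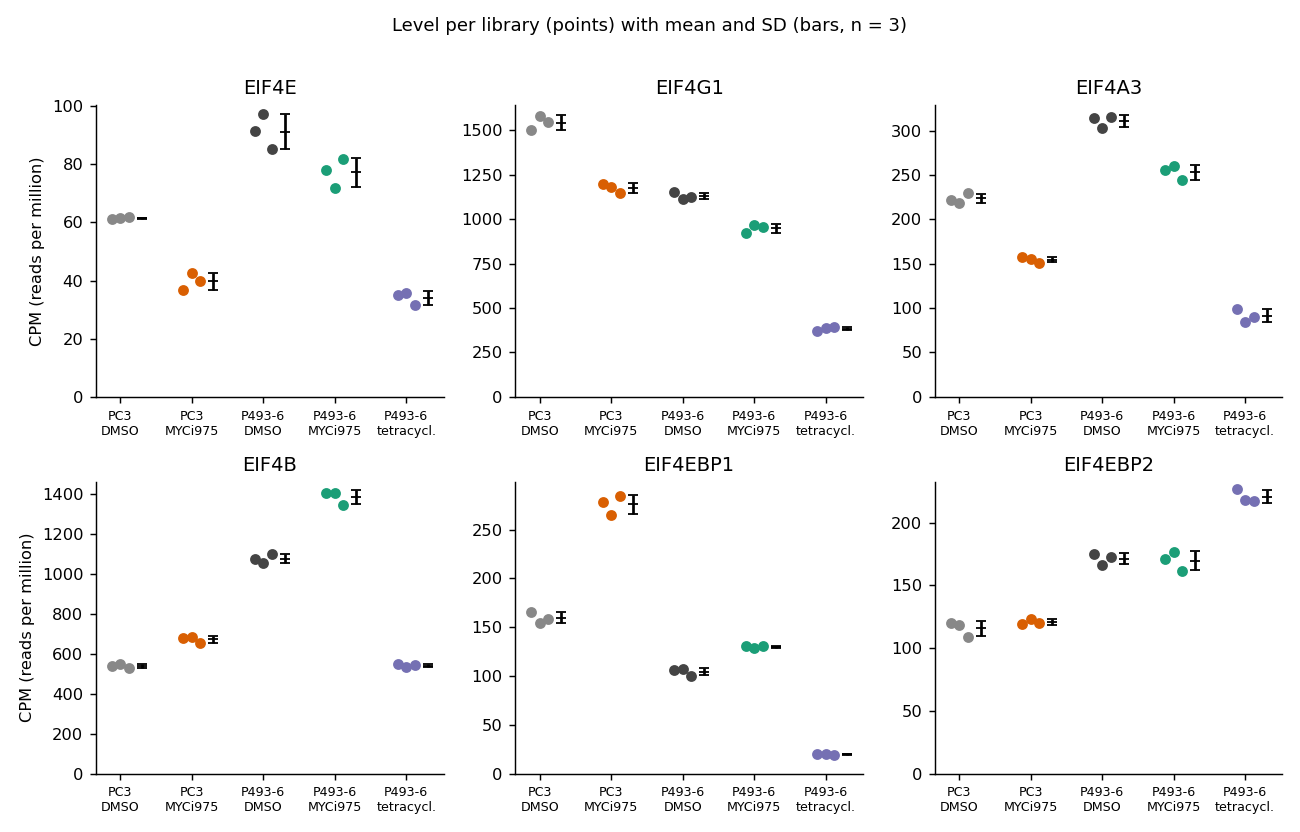
CPM of EIF4E, EIF4G1, EIF4A3, EIF4B, EIF4EBP1 and EIF4EBP2 (y axis, from 0) in each library of the 5 groups (x axis), with the mean and SD of 3 libraries beside the points. EIF4E, EIF4G1 and EIF4A3 are lower in all 3 treated groups, EIF4B and EIF4EBP1 are higher with MYCi975 and lower with tetracycline, and EIF4EBP2 is higher with tetracycline, at 221 against 171 CPM.

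EIF4G2, also called DAP5, is a related scaffold that lacks the eIF4E-binding region. It stood at 1262, 1241 and 1256 CPM in the PC3 controls and 855, 852 and 840.0 CPM with MYCi975. In P493-6 EIF4G2 stood at 929.7, 894 and 917 CPM in the P493-6 controls, 752, 760.2 and 708 CPM with MYCi975 and 640.5, 623 and 616 CPM with tetracycline. The 3 P493-6 groups did not overlap. EIF4G2 fell by 0.56 (SE 0.025, adjusted p = 1.16e-36) in PC3, by 0.30 (SE 0.038, adjusted p = 1.76e-08) with MYCi975 in P493-6 and by 0.54 (SE 0.036, adjusted p = 7.51e-17) with tetracycline. The third scaffold gene, EIF4G3, went the other way in PC3, where it rose by 0.27 (SE 0.049, adjusted p = 1.11e-06), and its P493-6 changes of −0.0039 and −0.019 did not pass. EIF4A3 is the helicase of the exon junction complex rather than of eIF4F. EIF4A3 stood at 222, 219 and 229.8 CPM in the PC3 controls and 157, 156 and 151 CPM with MYCi975. Its levels were 315, 303 and 315 CPM in the P493-6 controls, 256, 260.0 and 244 CPM with MYCi975 and 99.3, 84.7 and 90.4 CPM with tetracycline. The tetracycline libraries had less than any other group. EIF4A3 fell by 0.53 (SE 0.036, adjusted p = 3.36e-24) in PC3, by 0.30 (SE 0.042, adjusted p = 2.48e-07) with MYCi975 in P493-6 and by 1.76 (SE 0.050, adjusted p = 4.14e-29) with tetracycline.

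The helicases of eIF4F moved little. EIF4A1 stood at 91.4, 80.5 and 73.2 CPM in the PC3 controls and 84.6, 86.9 and 79.6 CPM with MYCi975. In P493-6 EIF4A1 stood at 167, 165 and 168 CPM in the P493-6 controls, 162, 166 and 174 CPM with MYCi975 and 162, 145 and 123 CPM with tetracycline. Its changes of 0.039 (95% interval −0.076 to 0.15) in PC3 and 0.0050 (−0.086 to 0.10) with MYCi975 in P493-6 did not pass, and it fell by 0.22 (SE 0.069, adjusted p = 0.00708) with tetracycline. EIF4A1 lost its call with TMM scaling and DESeq2 (log2 change −0.14 to −0.14, adjusted p = 0.0823 to 0.288), and without P493-6 tetracycline replicate 3 the change was −0.12. EIF4A1 passed without PC3 control replicate 1 (log2 change 0.12, adjusted p = 0.0426) in PC3. In the GENCODE v29 annotation 86.8% of its coding bases are shared on the same strand with SENP3-EIF4A1 and AC016876.2, so its counts are uncertain. EIF4A2, its close relative, rose by 0.13 (SE 0.031, adjusted p = 0.000159) in PC3, rose by 0.12 (SE 0.043, adjusted p = 0.039) with MYCi975 in P493-6 and fell by 0.30 (SE 0.044, adjusted p = 8.51e-08) with tetracycline. For the middle value, EIF4A2 lost its call without P493-6 control replicate 2 or 3 or P493-6 MYCi975 replicate 1, 2 or 3 (log2 change 0.085 to 0.12, adjusted p = 0.0711 to 0.227).

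EIF4B, which stimulates the helicase and is known as a target of S6 kinase, stood at 541, 548 and 530.2 CPM in the PC3 controls and 680.5, 682 and 652 CPM with MYCi975. In P493-6 it stood at 1074, 1051 and 1097 CPM in the P493-6 controls, 1401, 1403 and 1343 CPM with MYCi975 and 547, 534 and 542 CPM with tetracycline. The 3 P493-6 groups were fully apart, with MYCi975 highest and tetracycline lowest. EIF4B rose by 0.31 (SE 0.028, adjusted p = 1.7e-17) in PC3, rose by 0.36 (SE 0.036, adjusted p = 7.12e-11) with MYCi975 in P493-6 and fell by 0.99 (SE 0.036, adjusted p = 1.61e-25) with tetracycline. EIF4H, a relative of EIF4B, fell by 0.34 (SE 0.036, adjusted p = 2.82e-14) in PC3 and fell by 0.50 (SE 0.052, adjusted p = 1.37e-10) with tetracycline, and its change of −0.12 with MYCi975 in P493-6 did not pass. That change passed without P493-6 control replicate 2 (−0.17, adjusted p = 0.014) and without P493-6 MYCi975 replicate 2 (−0.16, adjusted p = 0.0216). EIF4E2, or 4EHP, binds the cap without recruiting eIF4G and represses translation. EIF4E2 stood at 135, 134 and 128 CPM in the PC3 controls and 113, 114 and 110.2 CPM with MYCi975. Its P493-6 levels were 116, 109.9 and 111 CPM in the P493-6 controls, 93.7, 82.2 and 94.2 CPM with MYCi975 and 88.3, 86.4 and 89.4 CPM with tetracycline. It was lower in every treated group, and the MYCi975 and tetracycline libraries of P493-6 overlapped. EIF4E2 fell by 0.23 (SE 0.041, adjusted p = 5.67e-07) in PC3, by 0.32 (SE 0.054, adjusted p = 9.23e-06) with MYCi975 in P493-6 and by 0.35 (SE 0.053, adjusted p = 2.05e-07) with tetracycline. EIF4E3, listed in PC3 only, had a change of −0.18 (SE 0.092, adjusted p = 0.0913) that passed without PC3 MYCi975 replicate 2 (−0.28, adjusted p = 0.0143), and 84.4% of its coding bases overlap another same-strand gene.

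Among the 4E-binding proteins, EIF4EBP1 and EIF4EBP3 fell with tetracycline and EIF4EBP2 rose. Of 4 genes 2 fell and 1 rose with tetracycline, and with MYCi975 1 of 3 rose in PC3 and 1 of 4 in P493-6. EIF4EBP1 (4E-BP1), which blocks eIF4E until mTORC1 phosphorylates it, stood at 166, 155 and 159 CPM in the PC3 controls and 278, 265 and 285 CPM with MYCi975. In P493-6 EIF4EBP1 stood at 106, 107 and 100.3 CPM in the P493-6 controls, 131, 129 and 130.4 CPM with MYCi975 and 20.4, 20.2 and 19.3 CPM with tetracycline. All MYCi975 libraries lay above their controls, and all tetracycline libraries lay far below them. EIF4EBP1 rose by 0.79 (SE 0.036, adjusted p = 2.24e-36) in PC3, rose by 0.31 (SE 0.049, adjusted p = 1.91e-06) with MYCi975 in P493-6 and fell by 2.33 (SE 0.069, adjusted p = 1.39e-28) with tetracycline, where the mean was 0.191 of control. EIF4EBP2, which acts like 4E-BP1, rose by 0.37 (SE 0.044, adjusted p = 1.23e-09) with tetracycline, from 171 ± 4.48 CPM to 221 ± 5.25 CPM (SD, n = 3), and its MYCi975 changes of 0.063 and −0.014 did not pass. EIF4EBP3, listed in P493-6 only, stood at 8.72, 9.91 and 8.49 CPM in the P493-6 controls, 8.13, 10.8 and 9.98 CPM with MYCi975 and 0.689, 1.103 and 0.707 CPM with tetracycline. The tetracycline libraries were close to the tables' limit of 1 CPM and the other groups were not. EIF4EBP3 was listed in that comparison through its control libraries, so the size and rank of its fall are uncertain. EIF4EBP3 fell by 2.46 (SE 0.18, adjusted p = 5.39e-16) with tetracycline, a value that was −1.27 with a pseudocount of 5, and had a change of 0.076 with MYCi975 that did not pass. Its coding bases are shared to 65.7% with the readthrough gene ANKHD1-EIF4EBP3, which stood at 4.22 CPM in the controls and 3.44 CPM with tetracycline. EIF4ENIF1, the eIF4E transporter, had changes of −0.083, −0.16 and −0.082, none of which passed. Summed over the complex, the 4E-binding genes took 302 ± 7.63 CPM in PC3 controls and 422 ± 7.30 CPM with the drug, the only complex besides EIF1 and EIF1A and EIF2 whose sum was higher with the drug in PC3.

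The 3 subunits of eIF2 did not move together. With tetracycline 5 of 6 EIF2 genes fell and none rose. With MYCi975 4 rose and 1 fell in PC3, and 3 rose and 1 fell in P493-6. The median log2 changes were 0.25, 0.18 and −0.43 for MYCi975 in PC3, MYCi975 in P493-6 and tetracycline. These medians are over all 6 genes, of which EIF2A, EIF2D and EIF2S3L are not the 3 subunits, and they do not describe the subunits. EIF2S1, EIF2S2 and EIF2S3 changed by −0.31, 0.41 and 0.36 in PC3 and by −0.25, −0.068 and 0.24 with MYCi975 in P493-6. With tetracycline they changed by −1.52, −1.22 and −0.091. EIF2S1, the alpha subunit that stress kinases phosphorylate, stood at 332, 336 and 327 CPM in the PC3 controls and 272, 272 and 258 CPM with MYCi975. In P493-6 EIF2S1 stood at 174, 172 and 169.5 CPM in the P493-6 controls, 152, 142 and 139 CPM with MYCi975 and 58.4, 61.1 and 58.2 CPM with tetracycline. Every treated library was below every control of its line. EIF2S1 fell by 0.31 (SE 0.033, adjusted p = 2.29e-14) in PC3, by 0.25 (SE 0.046, adjusted p = 4.21e-05) with MYCi975 in P493-6 and by 1.52 (SE 0.052, adjusted p = 2.03e-26) with tetracycline. EIF2S2, the beta subunit, stood at 227, 224 and 222 CPM in the PC3 controls and 304, 309.6 and 284 CPM with MYCi975. In P493-6 EIF2S2 stood at 159, 156 and 151 CPM in the P493-6 controls, 149.6, 155 and 140.1 CPM with MYCi975 and 72.2, 67.01 and 60.1 CPM with tetracycline. It was higher with the drug in PC3, overlapped its controls with the drug in P493-6 and was lower with tetracycline. EIF2S2 rose by 0.41 (SE 0.034, adjusted p = 1.59e-19) in PC3, had a change of −0.068 (95% interval −0.16 to 0.028) with MYCi975 in P493-6 and fell by 1.22 (SE 0.058, adjusted p = 1.24e-21) with tetracycline.

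EIF2S3, the gamma subunit that binds GTP and the tRNA, stood at 114, 112 and 114 CPM in the PC3 controls and 144, 148 and 146 CPM with MYCi975. The P493-6 libraries held 632, 653 and 647 CPM in the P493-6 controls, 752, 759 and 763 CPM with MYCi975 and 601, 599 and 613 CPM with tetracycline. The drug libraries lay above their controls in both lines, and tetracycline libraries were just below theirs. EIF2S3 rose by 0.36 (SE 0.040, adjusted p = 1.72e-13) in PC3, rose by 0.24 (SE 0.037, adjusted p = 2.51e-06) with MYCi975 in P493-6 and fell by 0.091 (SE 0.037, adjusted p = 0.024) with tetracycline. The last call is weak: EIF2S3 lost its call without P493-6 control replicate 2 or 3 or P493-6 tetracycline replicate 2 and with TMM scaling, edgeR and DESeq2 (log2 change −0.087 to −0.011, adjusted p = 0.0595 to 0.808). Its near-identical copy EIF2S3L stood at 0.617 CPM on average in the PC3 controls and 3.09 CPM in the P493-6 controls and passed no test, and reads of the copies could have been split between them. EIF2A, a separate initiator tRNA-binding factor, stood at 95.1, 91.4 and 91.8 CPM in the PC3 controls and 109.7, 109 and 108 CPM with MYCi975. In P493-6 EIF2A stood at 89.4, 85.6 and 85.7 CPM in the P493-6 controls, 108, 102 and 101 CPM with MYCi975 and 52.7, 54.5 and 56.6 CPM with tetracycline. It was highest with MYCi975 in both lines and lowest with tetracycline. EIF2A rose by 0.23 (SE 0.043, adjusted p = 1.96e-06) in PC3, rose by 0.25 (SE 0.052, adjusted p = 0.000169) with MYCi975 in P493-6 and fell by 0.66 (SE 0.060, adjusted p = 6.37e-13) with tetracycline. EIF2D, which can deliver tRNA without GTP, rose by 0.28 (SE 0.040, adjusted p = 4.19e-09) in PC3, rose by 0.15 (SE 0.054, adjusted p = 0.0325) with MYCi975 in P493-6 and fell by 0.21 (SE 0.058, adjusted p = 0.00169) with tetracycline. For MYCi975 in P493-6, EIF2D lost its call without P493-6 control replicate 1 or 3 or P493-6 MYCi975 replicate 1 or 2 (log2 change 0.13 to 0.15, adjusted p = 0.0863 to 0.135). With tetracycline, EIF2D lost its call with DESeq2 (log2 change −0.13, adjusted p = 0.0966), and TMM scaling gave −0.13.

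All 5 subunits of eIF2B, the exchange factor that recharges eIF2, fell with tetracycline, and none rose in any comparison against a control. In PC3 4 of 5 fell, and with MYCi975 in P493-6 3 of 5 fell, with medians of −0.15, −0.23 and −0.89 for MYCi975 in PC3, MYCi975 in P493-6 and tetracycline. Their summed level was 301 ± 10.4 CPM in the P493-6 controls, 268 ± 11.7 CPM with MYCi975 and 145 ± 7.30 CPM with tetracycline (SD, n = 3). EIF2B3, the gamma subunit, stood at 36.5, 37.8 and 34.7 CPM in the PC3 controls and 28.1, 29.7 and 25.8 CPM with MYCi975. In P493-6 EIF2B3 stood at 59.2, 52.4 and 56.1 CPM in the P493-6 controls, 52.9, 50.6 and 48.1 CPM with MYCi975 and 11.4, 10.9 and 11.1 CPM with tetracycline. The tetracycline libraries were far below the others, with a mean ratio to control of 0.199. EIF2B3 fell by 0.37 (SE 0.067, adjusted p = 1.22e-06) in PC3 and fell by 2.23 (SE 0.088, adjusted p = 1.86e-24) with tetracycline, and its change of −0.14 with MYCi975 in P493-6 did not pass. EIF2B5, the catalytic epsilon subunit, stood at 114, 118 and 114 CPM in the PC3 controls and 87.8, 87.5 and 77.2 CPM with MYCi975. Its P493-6 levels were 94.7, 94.1 and 87.1 CPM in the P493-6 controls, 89.04, 88.5 and 86.96 CPM with MYCi975 and 53.9, 48.6 and 53.97 CPM with tetracycline. It was lower with the drug in PC3, and the drug and control libraries overlapped in P493-6. EIF2B5 fell by 0.45 (SE 0.045, adjusted p = 2.94e-15) in PC3, had a change of −0.059 (95% interval −0.16 to 0.047) with MYCi975 in P493-6 and fell by 0.81 (SE 0.062, adjusted p = 5.38e-15) with tetracycline.

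The regulatory subunits are EIF2B1, EIF2B2 and EIF2B4, of which EIF2B1 and EIF2B4 fell in PC3. EIF2B1 stood at 63.9, 59.1 and 60.95 CPM in the PC3 controls and 58.3, 56.4 and 54.1 CPM with MYCi975, and at 85.4, 80.1 and 81.6 CPM in the P493-6 controls, 68.8, 75.1 and 65.9 CPM with MYCi975 and 44.99, 43.9 and 42.95 CPM with tetracycline. It fell by 0.12 (SE 0.053, adjusted p = 0.0394) in PC3, by 0.23 (SE 0.057, adjusted p = 0.00128) with MYCi975 in P493-6 and by 0.89 (SE 0.062, adjusted p = 3.22e-16) with tetracycline. EIF2B2 stood at 30.6, 28.6 and 29.98 CPM in the PC3 controls and 30.1, 27.2 and 29.5 CPM with MYCi975, and at 23.8, 24.2 and 27.8 CPM in the P493-6 controls, 21.1, 23.4 and 19.3 CPM with MYCi975 and 16.1, 14.7 and 17.8 CPM with tetracycline. It had a change of −0.038 in PC3 that did not pass, and fell by 0.24 (SE 0.091, adjusted p = 0.0408) with MYCi975 in P493-6 and by 0.61 (SE 0.10, adjusted p = 7.08e-07) with tetracycline. EIF2B4 stood at 57.8, 57.8 and 54.6 CPM in the PC3 controls and 51.8, 51.7 and 49.6 CPM with MYCi975, and at 49.1, 41.8 and 44.5 CPM in the P493-6 controls, 37.9, 41.5 and 35.6 CPM with MYCi975 and 19.1, 19.6 and 26.5 CPM with tetracycline. It fell by 0.15 (SE 0.054, adjusted p = 0.013) in PC3, by 0.23 (SE 0.073, adjusted p = 0.0133) with MYCi975 in P493-6 and by 1.03 (SE 0.10, adjusted p = 1.72e-11) with tetracycline. Tetracycline libraries were the lowest for all 3 genes, and their calls with MYCi975 were sensitive to single libraries. In PC3, EIF2B1 lost its call without PC3 control replicate 1 or 3 or PC3 MYCi975 replicate 2 or 3 and with TMM scaling, edgeR and DESeq2 (log2 change −0.13 to −0.093, adjusted p = 0.0517 to 0.176). In the same line, EIF2B4 lost its call without PC3 control replicate 2 or PC3 MYCi975 replicate 3 and with DESeq2 (log2 change −0.15 to −0.13, adjusted p = 0.0511 to 0.0546). In P493-6, EIF2B2 lost its call without P493-6 control replicate 2 or 3 or P493-6 MYCi975 replicate 1 or 3 and with TMM scaling, edgeR, DESeq2 and all 9 P493-6 libraries fitted together (log2 change −0.27 to −0.17, adjusted p = 0.0556 to 0.248). Likewise, EIF2B4 lost its call without P493-6 control replicate 1 or P493-6 MYCi975 replicate 3 and with edgeR, DESeq2 and all 9 P493-6 libraries fitted together (log2 change −0.23 to −0.17, adjusted p = 0.0514 to 0.146).

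The eIF3 complex, the large platform that binds the small subunit and eIF4G, held genes that fell over a wide range with tetracycline and a few that rose. With tetracycline 11 of 14 EIF3 genes fell and 3 rose, over a range of −1.98 to 0.48. With MYCi975 6 rose and 4 fell in PC3, and 6 rose and 2 fell in P493-6, and the medians were 0.054, 0.011 and −0.66 for MYCi975 in PC3, MYCi975 in P493-6 and tetracycline. EIF3B, a core subunit, stood at 675, 715 and 707 CPM in the PC3 controls and 532, 501 and 541 CPM with MYCi975. In P493-6 EIF3B stood at 588, 603 and 610.5 CPM in the P493-6 controls, 550.0, 542 and 548 CPM with MYCi975 and 149, 156 and 151 CPM with tetracycline. Every treated library lay below its controls, and with tetracycline the mean ratio to control was 0.253. EIF3B fell by 0.41 (SE 0.029, adjusted p = 7.99e-23) in PC3, by 0.14 (SE 0.038, adjusted p = 0.00518) with MYCi975 in P493-6 and by 1.98 (SE 0.041, adjusted p = 5.53e-34) with tetracycline. For MYCi975 in P493-6, EIF3B lost its call with TMM scaling, edgeR and DESeq2 (log2 change −0.092 to −0.090, adjusted p = 0.0875 to 0.106). EIF3J, a loosely attached subunit, stood at 116, 119.7 and 118 CPM in the PC3 controls and 108, 108 and 97.6 CPM with MYCi975. The P493-6 libraries held 123, 112 and 106 CPM in the P493-6 controls, 98.6, 96.2 and 101 CPM with MYCi975 and 36.6, 29.9 and 33.3 CPM with tetracycline. It followed the order of EIF3B, lowest with tetracycline. EIF3J fell by 0.18 (SE 0.043, adjusted p = 0.000196) in PC3, by 0.20 (SE 0.053, adjusted p = 0.00305) with MYCi975 in P493-6 and by 1.74 (SE 0.070, adjusted p = 7.82e-24) with tetracycline. With MYCi975 in P493-6, EIF3J lost its call without P493-6 control replicate 1 and with DESeq2 (log2 change −0.16 to −0.14, adjusted p = 0.0514 to 0.0555).

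EIF3F, EIF3H and EIF3L rose in all 3 comparisons. EIF3F (gene at chr11:7970251-8001862, hg38), which shares the MPN fold with EIF3H, stood at 118, 110.3 and 118 CPM in the PC3 controls and 150.2, 145 and 150.2 CPM with MYCi975. In P493-6 EIF3F stood at 223, 201 and 205 CPM in the P493-6 controls, 251, 262 and 237 CPM with MYCi975 and 308, 283 and 289 CPM with tetracycline. All treated libraries lay above the controls of their line. EIF3F rose by 0.36 (SE 0.040, adjusted p = 3.66e-13) in PC3, by 0.25 (SE 0.046, adjusted p = 2.31e-05) with MYCi975 in P493-6 and by 0.48 (SE 0.045, adjusted p = 1.99e-12) with tetracycline. EIF3H stood at 375, 362 and 379.7 CPM in the PC3 controls and 459, 485 and 464 CPM with MYCi975. In P493-6 EIF3H stood at 426, 444 and 425 CPM in the P493-6 controls, 526, 513 and 541 CPM with MYCi975 and 559.7, 554 and 546 CPM with tetracycline. Again no treated library overlapped its controls. EIF3H rose by 0.33 (SE 0.031, adjusted p = 3.63e-17) in PC3, by 0.29 (SE 0.039, adjusted p = 1.43e-07) with MYCi975 in P493-6 and by 0.36 (SE 0.038, adjusted p = 4.99e-11) with tetracycline. EIF3L stood at 124, 126 and 129 CPM in the PC3 controls and 149.5, 163 and 143 CPM with MYCi975. In P493-6 EIF3L stood at 382, 373 and 388 CPM in the P493-6 controls, 496, 492 and 471 CPM with MYCi975 and 479.9, 468 and 472 CPM with tetracycline. The treated libraries were higher in both lines. EIF3L rose by 0.26 (SE 0.040, adjusted p = 2.42e-08) in PC3, by 0.35 (SE 0.039, adjusted p = 1.42e-09) with MYCi975 in P493-6 and by 0.31 (SE 0.038, adjusted p = 1.86e-09) with tetracycline, and 36.1% of its coding bases overlap another same-strand gene.

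**Figure D3:**
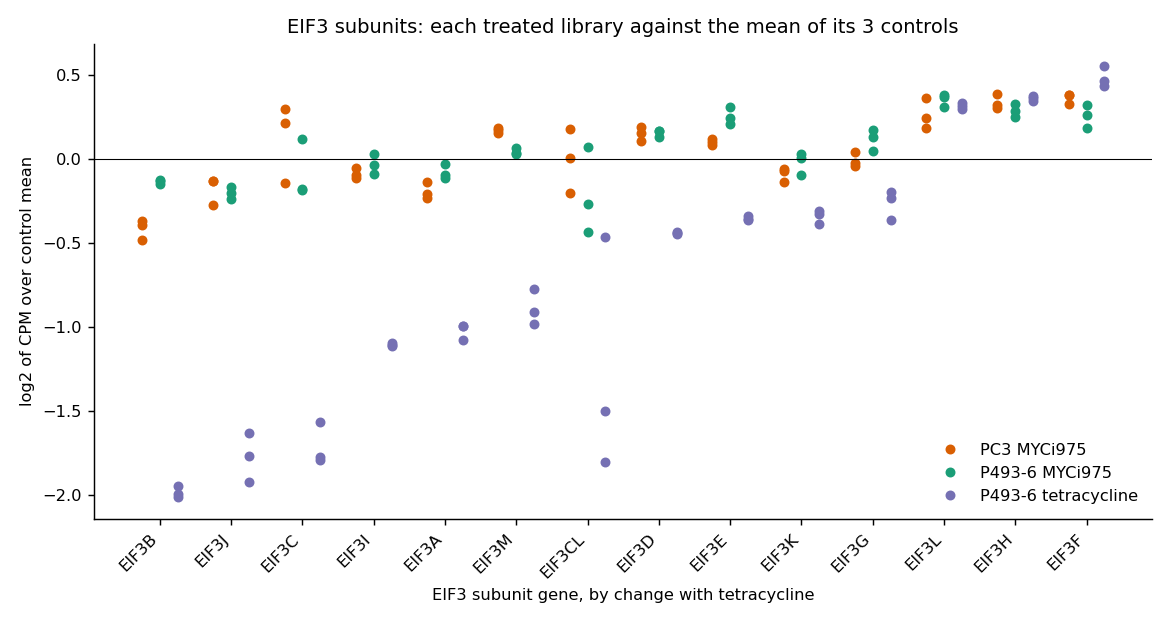
Log2 of CPM in each treated library over the mean of its 3 controls (y axis) for the 14 EIF3 genes (x axis, ordered by the change with tetracycline), for MYCi975 in PC3, MYCi975 in P493-6 and tetracycline in P493-6. The tetracycline points are lowest for EIF3B and highest for EIF3F, whose fitted changes were −1.98 and 0.48, while the MYCi975 points of both lines lie in a narrower band around 0.

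Of the other EIF3 genes, EIF3D, EIF3E, EIF3G, EIF3K and EIF3M fell with tetracycline by 0.44, 0.35, 0.26, 0.34 and 0.89. EIF3A, the largest core subunit, and EIF3I fell further, by 1.02 and 1.10, and EIF3C by 1.58. EIF3D, the subunit that can itself bind caps, rose by 0.15 with MYCi975 in PC3 and 0.15 in P493-6, and EIF3E rose by 0.10 and 0.25. In PC3 EIF3M rose by 0.17, and EIF3A and EIF3I fell by 0.19 and 0.090. EIF3G rose by 0.11 with MYCi975 in P493-6, a call that rested on most single libraries. In PC3, EIF3I lost its call without PC3 control replicate 1 or 3 or PC3 MYCi975 replicate 3 and with DESeq2 (log2 change −0.085 to −0.071, adjusted p = 0.0571 to 0.12). In P493-6, EIF3G lost its call without P493-6 control replicate 1, 2 or 3 or P493-6 MYCi975 replicate 1 or 2 and with all 9 P493-6 libraries fitted together (log2 change 0.083 to 0.13, adjusted p = 0.0573 to 0.233). Below the threshold with all libraries, EIF3C passed without PC3 MYCi975 replicate 3 (log2 change 0.24, adjusted p = 0.0456) and EIF3K passed without PC3 control replicate 2 (log2 change −0.14, adjusted p = 0.0165) in PC3, and EIF3A passed without P493-6 MYCi975 replicate 3 (log2 change −0.11, adjusted p = 0.019) in P493-6. EIF3C and its near-identical copy EIF3CL stood at 23.1 and 4.29 CPM in the P493-6 controls, so reads may have been lost between them, and the tetracycline fall of EIF3CL by 0.87 was the 1 called change there whose groups overlapped. Per kilobase of coding sequence, the listed EIF3 levels in the P493-6 controls ran from 1.56 and 8.42 CPM per kb for this pair to 393 CPM per kb for EIF3H. The libraries were made by exon capture, which may differ between genes, so values per kb may not rank genes by their mRNA. With tetracycline EIF3H stood at 504 and EIF3B at 62.1 CPM per kb, from 246 CPM per kb for EIF3B in the controls.

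EIF1 and EIF1AX, which act together in scanning for the start codon, moved apart. EIF1, which keeps the ribosome from stopping at wrong codons, stood at 217, 219.9 and 217 CPM in the PC3 controls and 367, 369.6 and 351 CPM with MYCi975. In P493-6 EIF1 stood at 208, 202 and 216 CPM in the P493-6 controls, 237, 229 and 212 CPM with MYCi975 and 245, 235 and 239 CPM with tetracycline. The PC3 groups were far apart, and in P493-6 the drug libraries overlapped the controls. EIF1 rose by 0.73 (SE 0.033, adjusted p = 9.74e-37) in PC3, a mean ratio of 1.66, and rose by 0.20 (SE 0.043, adjusted p = 7.37e-05) with tetracycline. Its change with MYCi975 in P493-6 was 0.11 (SE 0.045, adjusted p = 0.0543), which did not pass, and EIF1 passed without P493-6 control replicate 3 or P493-6 MYCi975 replicate 3 and with TMM scaling, genes under a mean CPM of 5 left out, edgeR and DESeq2 (log2 change 0.11 to 0.16, adjusted p = 0.00621 to 0.0487). EIF1AX stood at 164, 159 and 161 CPM in the PC3 controls and 108, 112 and 108 CPM with MYCi975. In P493-6 EIF1AX stood at 163, 175 and 167 CPM in the P493-6 controls, 137, 129 and 130.0 CPM with MYCi975 and 41.5, 44.5 and 40.3 CPM with tetracycline. It was lower in each treated group, with tetracycline at 0.250 of control. EIF1AX fell by 0.56 (SE 0.040, adjusted p = 2.1e-23) in PC3, by 0.35 (SE 0.047, adjusted p = 9.8e-08) with MYCi975 in P493-6 and by 1.97 (SE 0.057, adjusted p = 6.07e-29) with tetracycline. EIF1AD, which carries an eIF1A-like domain, stood at 47.8, 44.6 and 51.01 CPM in the PC3 controls and 37.4, 38.3 and 39.5 CPM with MYCi975. Its P493-6 levels were 36.4, 37.3 and 38.9 CPM in the P493-6 controls, 31.1, 29.7 and 30.3 CPM with MYCi975 and 26.2, 27.4 and 27.99 CPM with tetracycline. EIF1AD fell by 0.31 (SE 0.060, adjusted p = 5.88e-06) in PC3, by 0.30 (SE 0.074, adjusted p = 0.00172) with MYCi975 in P493-6 and by 0.45 (SE 0.079, adjusted p = 3.1e-06) with tetracycline. EIF1B, a close paralog of EIF1, rose by 0.21 (SE 0.067, adjusted p = 0.00596) in PC3, and EIF1B lost its call without PC3 control replicate 3 or PC3 MYCi975 replicate 2 (log2 change 0.15 to 0.16, adjusted p = 0.0666 to 0.0876). With tetracycline it had a change of 0.17 that did not pass, and EIF1B passed without P493-6 control replicate 1 and with a pseudocount of 5, TMM scaling, genes under a mean CPM of 5 left out, edgeR and DESeq2 (log2 change 0.15 to 0.25, adjusted p = 0.00377 to 0.0497).

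All 5 EIF5 genes and EIF6 fell with tetracycline, though EIF5A2 and EIF5AL1 stood near 1 CPM there. With MYCi975 2 of 5 EIF5 genes fell in PC3 and 2 in P493-6, with medians of −0.22, −0.24 and −0.98 in the order PC3, P493-6 and tetracycline. The medians of −0.22 and −0.98 are the values of EIF5AL1, a gene of low level. EIF5A, the hypusine-bearing factor that also helps elongation, had the highest CPM per kilobase of coding sequence of the EIF genes in the P493-6 controls, at 1562 CPM per kb. EIF5A stood at 553, 538 and 536 CPM in the PC3 controls and 397, 404 and 407 CPM with MYCi975. In P493-6 EIF5A stood at 859, 852 and 904 CPM in the P493-6 controls, 749, 763 and 706 CPM with MYCi975 and 281, 282 and 269 CPM with tetracycline. The groups were ordered control, MYCi975, tetracycline in P493-6 with no overlap. EIF5A fell by 0.43 (SE 0.029, adjusted p = 3.83e-24) in PC3, by 0.24 (SE 0.039, adjusted p = 4.24e-06) with MYCi975 in P493-6 and by 1.65 (SE 0.039, adjusted p = 5.99e-32) with tetracycline. EIF5B, the GTPase that joins the subunits, stood at 384, 428 and 400.2 CPM in the PC3 controls and 272, 268 and 237 CPM with MYCi975. In P493-6 EIF5B stood at 375, 329 and 323 CPM in the P493-6 controls, 223, 242 and 254 CPM with MYCi975 and 98.5, 107 and 120.1 CPM with tetracycline. Its fall with MYCi975 was the largest of all EIF genes in both lines. EIF5B fell by 0.64 (SE 0.054, adjusted p = 5.9e-07) in PC3, by 0.51 (SE 0.050, adjusted p = 2.35e-09) with MYCi975 in P493-6 and by 1.65 (SE 0.063, adjusted p = 1.21e-15) with tetracycline. EIF6, which keeps the large subunit from joining early, stood at 186, 179.6 and 178 CPM in the PC3 controls and 179, 171 and 186 CPM with MYCi975. The P493-6 libraries held 70.9, 78.5 and 77.1 CPM in the P493-6 controls, 82.7, 83.4 and 75.3 CPM with MYCi975 and 40.98, 43.7 and 38.9 CPM with tetracycline. EIF6 fell by 0.86 (SE 0.067, adjusted p = 7.69e-15) with tetracycline, and its MYCi975 changes of −0.018 and 0.090 did not pass. EIF6 shares 33.3% of its coding bases with another same-strand gene.

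EIF5, which triggers GTP hydrolysis on eIF2, fell by 0.65 (SE 0.043, adjusted p = 6.2e-17) with tetracycline and had MYCi975 changes of −0.025 and −0.057 that did not pass. EIF5A2, the second EIF5A gene, fell by 0.69 (SE 0.21, adjusted p = 0.00379) with tetracycline, from 2.39 ± 1.22 CPM to 1.03 ± 0.279 CPM (SD, n = 3). At this low level, EIF5A2 lost its call without P493-6 control replicate 2 (log2 change −0.42, adjusted p = 0.1), while edgeR gave −1.19 and a pseudocount of 5 gave −0.28. EIF5AL1, a near-identical copy of EIF5A, fell by 0.98 (SE 0.21, adjusted p = 6.01e-05) with tetracycline, edgeR giving −1.53, and its reads cannot be separated with certainty from those of EIF5A. EIF5AL1 stood at 3.49, 2.37 and 2.15 CPM in the P493-6 controls and 0.689, 1.47 and 0.505 CPM with tetracycline. It was listed in that comparison through its control libraries, so the size of its fall is uncertain.

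The response to MYCi975 differed between the lines for 16 of 48 EIF genes, by a test of the difference itself. That is about as often as over all genes, where 4075 of 11240 passed. Most of the EIF genes that passed moved farther in PC3. Of the 16 EIF genes that rose in PC3, 11 also rose in P493-6 (68.75% of the PC3 list and 91.67% of the 12 that rose in P493-6). Of the 19 that fell in PC3, 14 also fell in P493-6 (73.68% of the PC3 list and 93.33% of 15), and none was called in opposite directions. The same shares over all genes were not worked out, so it is not known whether the EIF genes stand out here. The line-by-treatment term of limma over 11240 genes passed for 16 of 48 EIF genes, 6 with the higher change in PC3 and 10 with the lower, where 18.1% of all genes had the higher and 18.2% the lower. With TMM scaling these were 4 and 13. EIF1 differed most, by 0.62 (SE 0.056, adjusted p = 1.03e-11), followed by EIF2S2 at 0.48 and EIF4EBP1 at 0.47. On the lower side EIF2B5 differed by −0.39 (SE 0.071, adjusted p = 2.72e-05) and EIF4E by −0.38 (SE 0.084, adjusted p = 0.000393). For EIF4G3, which rose in PC3, the difference was 0.27, and for EIF3E, which rose more in P493-6, it was −0.15. By contrast EIF5B, with the strongest fall in both lines, had a difference of −0.13 (95% interval −0.36 to 0.10) that did not pass. In the between-line test EIF2S3 lost its call with a pseudocount of 5, TMM scaling, edgeR and DESeq2 (log2 change 0.093 to 0.12, adjusted p = 0.0528 to 0.166), and EIF3M lost its call with TMM scaling, edgeR and DESeq2 (log2 change 0.093 to 0.11, adjusted p = 0.101 to 0.164). Of genes that did not pass there, with differences of −0.11, −0.23 and −0.12, EIF3A passed with TMM scaling, edgeR and DESeq2 (log2 change −0.15 to −0.13, adjusted p = 0.0143 to 0.0368), EIF2B3 passed with TMM scaling, genes under a mean CPM of 5 left out and edgeR (log2 change −0.28 to −0.23, adjusted p = 0.0152 to 0.0486) and EIF3G passed with TMM scaling and edgeR (log2 change −0.16 to −0.15, adjusted p = 0.0327 to 0.0342).

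**Figure D4:**
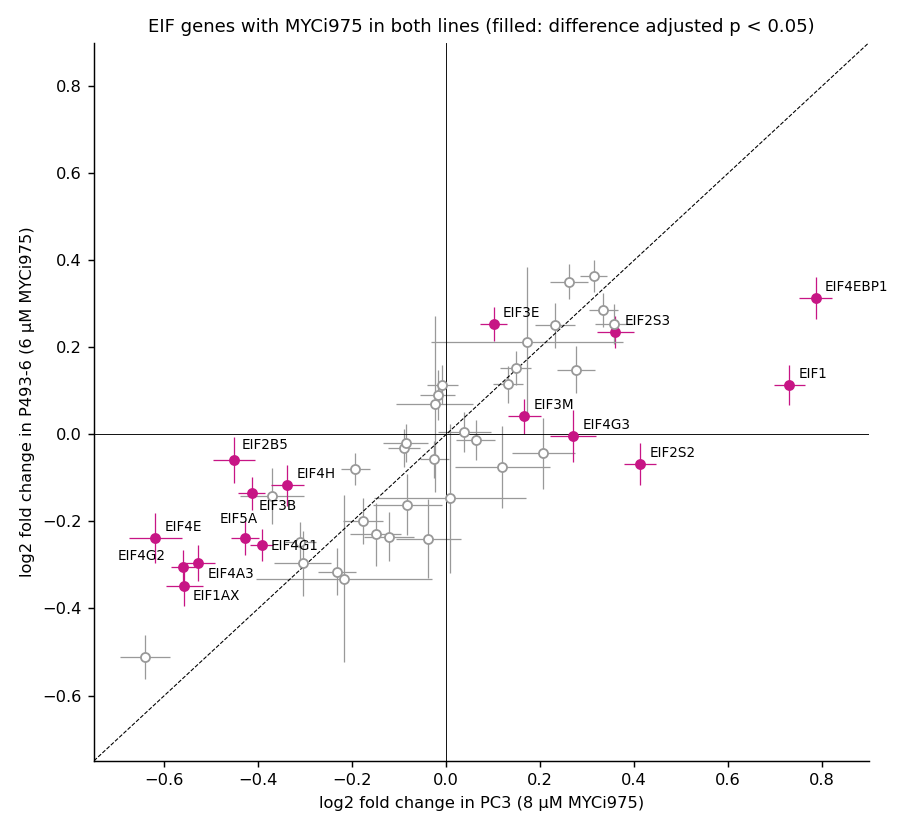
Log2 fold change with MYCi975 in PC3 at 8 µM (x axis) against that in P493-6 at 6 µM (y axis) for 48 EIF genes, with standard errors as bars and a dashed line of equal change. Filled, named genes passed the test of the difference between lines at an adjusted p of 0.05; EIF1 and EIF4EBP1 lie farthest right, at 0.73 and 0.79 in PC3 against 0.11 and 0.31 in P493-6.

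Within P493-6 the inhibitor and MYC shut-off were compared directly, over 12860 genes in 9 libraries. Of 49 EIF genes 38 were higher with MYCi975 than with tetracycline and 3 were lower, against 42.3% and 33.9% of all genes. TMM scaling and edgeR gave 37 higher and 6 lower, and DESeq2 37 higher and 5 lower. The EIF median was 0.66 and that of all genes 0.079. EIF4EBP1 differed most, by 2.64 (SE 0.059, adjusted p = 1.46e-38), and EIF2B3 by 2.09. The difference of 2.53 for EIF4EBP3 is of uncertain size, as this gene stood near 1 CPM with tetracycline. EIF3B was higher by 1.84 and EIF1AX by 1.63 with the inhibitor. The genes called lower with the inhibitor were EIF1B at −0.21, EIF3F at −0.23 and EIF4EBP2 at −0.38. EIF3H and EIF3L had differences of −0.072 and 0.038 that did not pass, and neither did those of −0.087 for EIF1 and −0.079 for EIF4ENIF1. With other scalings or tools some of these were lower with the inhibitor: EIF3H passed with TMM scaling, edgeR and DESeq2 (log2 change −0.18 to −0.17, adjusted p = 5.07e-05 to 0.000165), EIF1 passed with TMM scaling, edgeR and DESeq2 (log2 change −0.19 to −0.18, adjusted p = 0.00021 to 0.00128) and EIF4ENIF1 passed with TMM scaling and edgeR (log2 change −0.19 to −0.18, adjusted p = 0.0191 to 0.0271). EIF4A1 lost its call with TMM scaling, edgeR and DESeq2 (log2 change 0.12 to 0.12, adjusted p = 0.052 to 0.111). MYC mRNA differed by 5.09 in the same contrast.

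Levels in the controls of the lines are set side by side for some factors, and their difference was not tested. Each gene is compared with itself here, as CPM (mean ± SD, n = 3). EIF2S3 stood at 113 ± 1.32 CPM in PC3 controls and 644 ± 10.7 CPM in P493-6 controls. EIF3L stood at 126 ± 2.10 CPM and 381 ± 7.56 CPM. EIF3K stood at 83.97 ± 5.67 CPM and 213 ± 6.61 CPM. In the other direction, EIF5A2 stood at 20.97 ± 2.51 CPM in PC3 and 2.39 ± 1.22 CPM in P493-6. EIF6 stood at 181 ± 4.59 CPM and 75.5 ± 4.09 CPM, and EIF2S1 at 332 ± 4.52 CPM and 172 ± 2.003 CPM. Each of these differences exceeds the SD within either group. EIF3J, EIF3I and EIF3E were close in the lines, EIF3E at 476 ± 2.80 CPM and 474 ± 4.75 CPM, which do not differ beyond their SD.

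Ratios between related genes within a library do not depend on library scaling, and 7 pairs were compared by exact two-sided permutation of 3 against 3 libraries, which cannot go below p = 0.1, with p-values adjusted over the 7 pairs. The ratio of EIF4G1 to EIF4G3, the alternative scaffolds, was lower in all 3 treated groups, with log2 differences of −0.67 (exact p = 0.1, adjusted 0.117) in PC3, −0.25 (exact p = 0.1, adjusted 0.233) with MYCi975 in P493-6 and −1.54 (exact p = 0.1, adjusted 0.233) with tetracycline. The EIF4EBP1 to EIF4EBP2 ratio was higher with MYCi975, by 0.73 (exact p = 0.1, adjusted 0.117) in PC3 and 0.33 (exact p = 0.1, adjusted 0.233) in P493-6, and lower with tetracycline, by −2.75 (exact p = 0.1, adjusted 0.233). For EIF4E to the repressive cap-binder EIF4E2 the differences were −0.40 (exact p = 0.1, adjusted 0.117), 0.078 (exact p = 0.4, adjusted 0.467) and −1.07 (exact p = 0.1, adjusted 0.233) in the same order. In P493-6 both cap-binders fell with MYCi975, and the groups' ratios overlapped. The EIF1 to EIF1B ratio moved by 0.52 (exact p = 0.1, adjusted 0.117) in PC3, and EIF5A to EIF5A2 by −0.40 (exact p = 0.1, adjusted 0.117). For EIF2B4 to EIF2B5 the PC3 difference was 0.30 (exact p = 0.1, adjusted 0.117). The helicase ratio EIF4A1 to EIF4A2 had differences of −0.093 (exact p = 0.4, adjusted 0.4), −0.11 (exact p = 0.1, adjusted 0.233) and 0.080 (exact p = 0.6, adjusted 0.7). In P493-6 the EIF1 to EIF1B differences were 0.16 (exact p = 0.2, adjusted 0.28) with MYCi975 and 0.024 (exact p = 0.8, adjusted 0.8) with tetracycline. EIF5A to EIF5A2 gave −0.37 (exact p = 0.5, adjusted 0.5) and −0.51 (exact p = 0.4, adjusted 0.56), and EIF2B4 to EIF2B5 gave −0.18 (exact p = 0.2, adjusted 0.28) and −0.25 (exact p = 0.2, adjusted 0.35). No adjusted p in these 21 comparisons reached 0.05, which the design does not allow.

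**Figure D5:**
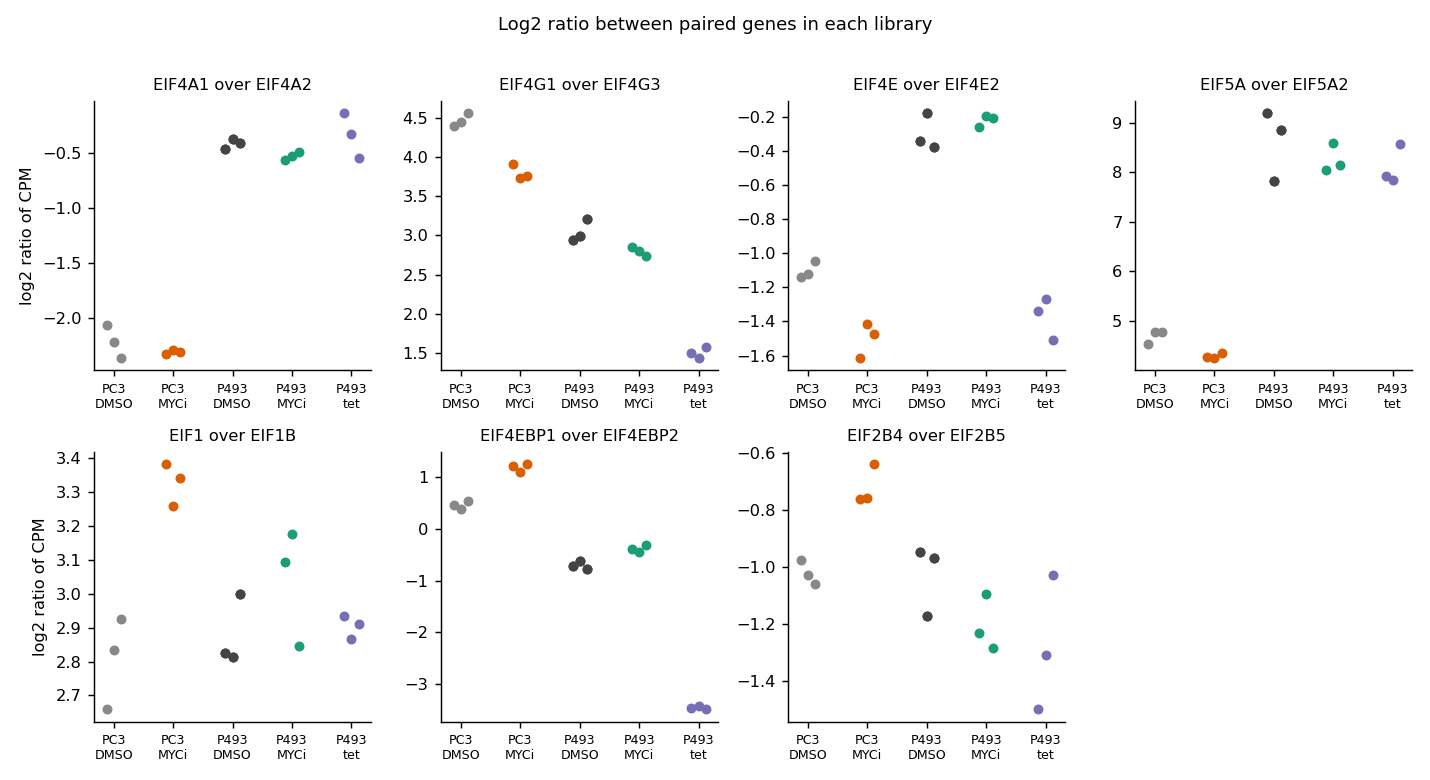
Log2 ratio of CPM between the genes of each of 7 pairs (y axis) in every library of the 5 groups (x axis; MYCi is MYCi975 and tet is tetracycline). The EIF4EBP1 to EIF4EBP2 panel separates all treated groups from their controls, at a mean of −0.71 in the P493-6 controls and −3.47 with tetracycline, while the EIF4A1 to EIF4A2 points overlap their controls in PC3 and with tetracycline.

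Genes that act around the initiation factors were read from 5 lists, with list medians in the order MYCi975 in PC3, MYCi975 in P493-6 and tetracycline. Over all genes 29.0% rose and 30.1% fell, 10.6% rose and 18.0% fell, and 36.2% rose and 41.9% fell in that order. The counts of these 5 short lists were not tested against those shares. Of 9 genes that set eIF2 phosphorylation or assembly, 5 rose and 3 fell with MYCi975 in PC3, 2 rose and 2 fell in P493-6, and 4 rose and 5 fell with tetracycline (medians 0.14, 0.052 and −0.57). PPP1R15A (GADD34), which guides the phosphatase to eIF2, rose by 1.33 (SE 0.036, adjusted p = 9.66e-54) in PC3 and by 0.32 (SE 0.085, adjusted p = 0.00378) in P493-6 with MYCi975. PPP1R15A was also higher with tetracycline, at a mean of 78.9 CPM against 22.4 CPM in the P493-6 controls. EIF2AK3 (PERK), a kinase of eIF2, rose by 0.43 (SE 0.078, adjusted p = 8.67e-07) in PC3. Its mean was 46.1 CPM in the P493-6 controls, 56.6 CPM with MYCi975 and 75.4 CPM with tetracycline. CDC123, which assembles eIF2, fell by 0.29 (SE 0.046, adjusted p = 1.7e-06) with MYCi975 in P493-6. With tetracycline EIF2AK2 (PKR) rose by 2.55 (SE 0.048, adjusted p = 3.84e-35), while IMPACT, an inhibitor of GCN2 activation, fell by 1.79 (SE 0.082, adjusted p = 2.49e-22). Genes on the kinase side and on the phosphatase side were both among those that rose. The kinases did not move together: EIF2AK1 and EIF2AK4 (GCN2) were lower with tetracycline. Their means were 110 and 38.4 CPM there, against 164 and 87.0 CPM in the P493-6 controls. Of 15 listed regulators of eIF4F, 5 rose and 4 fell in PC3, 4 rose and 5 fell with MYCi975 in P493-6, and 4 rose and 10 fell with tetracycline (medians 0.011, −0.078 and −0.54). MKNK2, a kinase of eIF4E, rose by 1.17 (SE 0.038, adjusted p = 4.02e-48) in PC3, and DHX29, a helicase of the scanning ribosome, fell by 0.59 (SE 0.065, adjusted p = 2.31e-13) there and by 0.44 (SE 0.061, adjusted p = 2.27e-07) in P493-6 with MYCi975. MKNK2 was also higher with tetracycline, at a mean of 651 CPM against 264 CPM in the P493-6 controls. PAIP2B, which inhibits the poly(A)-binding protein, rose by 0.37 (SE 0.14, adjusted p = 0.034) with MYCi975 in P493-6. With tetracycline LARP1, which binds mRNAs of the translation apparatus, fell by 1.71 (SE 0.040, adjusted p = 5.14e-32), and PABPC4 fell by 1.64 (SE 0.048, adjusted p = 7.37e-29).

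Of 7 genes of ribosome recycling, reinitiation and hypusine formation, 1 rose and 5 fell in PC3, none rose and 2 fell with MYCi975 in P493-6, and all 7 fell with tetracycline (medians −0.40, −0.19 and −0.63). BZW2, an eIF5 mimic, fell by 0.58 (SE 0.044, adjusted p = 2.27e-21) in PC3 and by 3.41 (SE 0.11, adjusted p = 1.62e-27) with tetracycline, and its relative BZW1 fell by 0.45 (SE 0.028, adjusted p = 3.26e-27) in PC3 and by 0.33 (SE 0.046, adjusted p = 2.41e-07) with MYCi975 in P493-6. ABCE1, the recycling ATPase, fell by 0.23 (SE 0.041, adjusted p = 2.14e-05) with MYCi975 in P493-6 and by 2.30 (SE 0.048, adjusted p = 9.69e-34) with tetracycline. Among 11 elongation and termination genes, 4 rose and 4 fell in PC3, 5 rose and 2 fell with MYCi975 in P493-6, and 4 rose and 6 fell with tetracycline (medians −0.12, 0.14 and −0.10). The PC3 counts, 36.4% each way, lie near the shares over all genes of 29.0% and 30.1%. EEF1A1, the main tRNA-delivering factor, rose by 0.35 (SE 0.021, adjusted p = 2.99e-28) in PC3, and in P493-6 with MYCi975 EEF2, the translocase, rose by 0.46 (SE 0.032, adjusted p = 2.31e-15) and EEF1A2 rose by 0.42 (SE 0.048, adjusted p = 1.76e-09). GSPT1, the release factor eRF3a, fell by 0.47 (SE 0.032, adjusted p = 1.98e-24) in PC3 and by 1.98 (SE 0.042, adjusted p = 1.42e-33) with tetracycline, where EEF1E1 fell by 2.004 (SE 0.15, adjusted p = 1.25e-15). The 8 mitochondrial translation factors gave 1 that rose and 3 that fell in PC3, 3 that fell with MYCi975 in P493-6, and 1 that rose and 7 that fell with tetracycline (medians 0.016, −0.15 and −1.26). TSFM, the mitochondrial exchange factor, fell by 0.34 (SE 0.064, adjusted p = 3e-06) in PC3, by 0.23 (SE 0.064, adjusted p = 0.00478) with MYCi975 in P493-6 and by 1.98 (SE 0.083, adjusted p = 1.52e-23) with tetracycline. MTRF1L fell by 0.36 (SE 0.074, adjusted p = 1.71e-05) in PC3, GFM1 fell by 0.33 (SE 0.046, adjusted p = 2.59e-07) with MYCi975 in P493-6, and TUFM fell by 1.75 (SE 0.039, adjusted p = 8.71e-33) with tetracycline.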

How the data were processed

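The 15 libraries were made with an exon-capture kit that keeps strand (TruSeq RNA Access), each from 50 ng of total RNA of cells grown with 10% serum, per the labels' protocols. The submitters' processing notes name STAR, HTSeq, edgeR and the build hg38, with no version, annotation or counting setting (not given in the sources used here). CPM values were deposited by the authors without further scaling between libraries: all values were whole multiples of 1 read of their library (100% within a tolerance of 0.001 reads), and every gene listed had a CPM above 1 in at least 2 of 6 libraries. The deposited tables also hold the authors' log2 fold changes, likelihood ratio scores, p-values and marks. Only the marks, with the fold changes and p-values behind them, are used, in 1 comparison in the closing section.

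Each table was fitted alone with limma 3.58.1 in R 4.3.3 (trend and robust) on log2(CPM + 1) over all its genes, with Benjamini-Hochberg adjustment over all genes at 0.05. The contrast of treatments used all 9 P493-6 libraries and the 12860 genes of both tables, and the contrast of lines used a line-by-treatment term. Alternatives were pseudocounts of 0.1 and 5, TMM scaling, a filter on a mean CPM of 5, a replicate block, leaving out each library, all 9 P493-6 libraries together, and edgeR 4.0.16 and DESeq2 1.42.0 on recovered reads. The fits were tested on simulated data. Depth ranged from 8162582 to 15926008 counted reads per library.

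The members, complexes, pairs, marker lists and the 5 pathway lists were chosen with earlier results of these data known. Values of every library are given for EIF2S1, EIF4E, EIF4A1, EIF4G1, EIF4EBP1 and EIF5A, for the 2 called genes with the largest change per complex and comparison, and for the gene with the largest difference in the contrasts between treatments and between lines. Of each pathway list the 2 called genes with the largest change per comparison are named. Overlaps and coding lengths came from GENCODE v29, matched by gene identifier. CD74 was the 1 B cell marker listed in PC3.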

Additional observations from a re-analysis of the deposited data

Results flagged for a closer look

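The 16 of 48 EIF genes whose MYCi975 response differed between PC3 and P493-6 in the line-by-treatment test of limma are given here as the effect in PC3 minus that in P493-6, on the log2 scale. The change was higher in PC3 for 6 of them (12.5% of the 48) and lower for 10 (20.8%), where 18.1% of all genes had the higher and 18.2% the lower change. EIF genes thus differed between the lines about as often as all genes. Among the scanning and eIF2 genes, EIF1 differed by 0.62, EIF2S2 by 0.48 and EIF2S3 by 0.13, all toward the higher change in PC3, and EIF1AX by −0.21. EIF2B5 differed by −0.39. Among the eIF3 genes, EIF3B differed by −0.28, EIF3E by −0.15 and EIF3M by 0.13. Among the EIF4 genes, EIF4E differed by −0.38, EIF4G2 by −0.26, EIF4A3 by −0.23, EIF4H by −0.22 and EIF4G1 by −0.14, while EIF4G3 differed by 0.27. TMM scaling, edgeR and DESeq2 each lost the calls of EIF2S3 and EIF3M. EIF4EBP1 differed by 0.47 and EIF5A by −0.19. The doses were 8 µM in PC3 and 6 µM in P493-6.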

How the results depend on the processing

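None of the changes of single EIF genes turned direction past the threshold under any alternative run. The genes of the pathway and marker lists went through the same alternative fits, but their values there are not given. Over all EIF gene results and alternatives, 2559 values kept their direction and their side of the threshold, 75 lost the call and 35 gained it. The count of genes that fell with MYCi975 in P493-6 was 2338 and became 1177 with DESeq2, and the count of EIF genes lower with MYCi975 than with tetracycline was 3 and became 6 with TMM scaling, 6 with edgeR and 5 with DESeq2. The cause was not tested. Leaving out 1 library gave 15 to 17 EIF genes up and 16 to 19 down with MYCi975 in PC3, 9 to 12 up and 13 to 16 down with MYCi975 in P493-6, and 5 to 6 up and 38 to 40 down with tetracycline. Same-numbered libraries did not deviate together, with correlations of −0.022 to 0.056 in PC3, −0.11 to −0.055 with MYCi975 in P493-6 and −0.076 to 0.051 with tetracycline. No pairing by replicate number was seen, but this check cannot exclude one, and the labels do not say. A replicate block gave 16 up and 19 down in PC3 and 5 up and 40 down with tetracycline. With MYCi975 in P493-6 it gave 9 up and 14 down, with EIF2B2, EIF2D, EIF3G and EIF4A2 losing the call. In the contrast of lines it gave 4 higher and 10 lower, with EIF2S3 and EIF3M losing the call. edgeR on the recovered reads called 8060, 3486 and 10726 genes in the 3 comparisons against control. Arms that lost a library were fitted with the pooled spread of the remaining libraries. Depth limits genes of a few CPM, such as EIF2S3L, EIF3CL, EIF5A2 and EIF5AL1, whose log2 changes moved by over 1.5 times with the pseudocount or the tool where they were called.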

Other observations

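Entries annotated as processed copies of EIF genes were listed at low levels and are given as values only. EIF4BP6 stood at 6.79 CPM on average in the PC3 controls and 9.21 CPM with MYCi975, and at 13.9, 18.8 and 7.09 CPM in the P493-6 controls, with MYCi975 and with tetracycline. EIF3FP3 stood at 4.30, 5.06 and 5.77 CPM in the same 3 P493-6 groups. EIF1AXP1 stood at 1.07, 1.11 and 0.110 CPM in them. Reads of a copy and its parent gene could have been counted for either.

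The authors' deposited table marks 16 EIF genes as up and 17 as down with MYCi975 in PC3, 13 and 11 with MYCi975 in P493-6, and 6 and 37 with tetracycline. Of these marked genes, limma called 16 and 17, 12 and 11, and 5 and 37 in the same direction, and 0 in the opposite direction. All limma calls were 16 up and 19 down, 12 and 15, and 5 and 40, so some carry no mark. With MYCi975 in P493-6, the authors' likelihood ratio test gave adjusted p = 0.0097 for EIF1 and 0.0102 for EIF3J. EIF1 was marked and EIF3J was not, so the marks follow a stricter cut than the limma calls. Both rest on the same reads, so their overlap is not a separate check.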
